A study of Rattus norvegicus with 26 samples.

Results

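Fetal rat liver cells sorted as LAP+/OC2- were set against fetal cells sorted as LAP+ alone, to ask which genes are lost when OC2+ cells are taken out of the LAP+ sort. The comparison uses 8 of the 26 libraries of the series, 4 of LAP+/OC2- cells (labelled replicates 1, 3, 4 and 5) and 4 of LAP+ cells (replicates 1 to 4). Cells of both sorts were immunopurified fetal hepatocytes taken before transplantation, and the labels give neither the fetal age, nor the strain, nor what the letters LAP and OC2 stand for. LAP+/OC2+ fetal hepatocytes and hepatocytes of adult rats, 4 libraries each, stand beside them as the sources from which the genes of the comparison were described. Each library is called a biological replicate, but nothing says that replicates came from separate litters, so p-values measure the spread between these samples only.

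The fetal liver is a mixed organ: hepatoblasts that give rise to hepatocytes and bile duct cells lie among blood-forming cells of many lineages. Sorting by surface antigens takes a part of this mixture, and a sort on 1 antigen keeps every cell that carries it, whatever else that cell carries. The deposited features carry identifiers without gene names, and 0 of 32552 could be paired with a symbol in the table used here, so markers of hepatocytes and of other liver cells could not be checked against the labels. Genes are described by position (coordinates of the deposited files, whose genome build the sources used here do not give), length and level, and levels are in CPM, the share of a gene in the scaled total count of its library.

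The sorts were close to each other. Totals ran from 15136347 to 16874438 counts in the 8 libraries, so that a count of 0 allows a level of up to 0.178 to 0.198 CPM (3 counts, counting error only). Correlations of log levels were 0.969 to 0.986 among LAP+/OC2- libraries, 0.953 to 0.973 among LAP+ libraries and 0.928 to 0.979 between the sorts, so the ranges overlapped. Mitochondrial genes took 4.94% ± 0.699 of the counts in LAP+/OC2- libraries and 5.04% ± 0.983 in LAP+ libraries (SD, n = 4 each; exact permutation test, 2-sided, p = 0.886). The 20 most abundant nuclear genes took 37.8% ± 2.72 of nuclear counts in the LAP+/OC2- sort, against 36.4% ± 1.74 in the LAP+ sort (SD, n = 4 each; exact permutation p = 0.514). Features under 200 nt took 0.398% ± 0.00989 in LAP+/OC2- and 0.430% ± 0.0299 in LAP+ libraries (exact permutation p = 0.114). At an equal depth of 14425753 nuclear counts, 17493 ± 255 genes had a count in LAP+/OC2- and 17520 ± 154 in LAP+ libraries (SD, n = 4 each; exact permutation p = 0.914). Adjusted over these 4 measures, the lowest p was 0.457, and the smallest p that 4 against 4 libraries can give is 0.0286.

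Of 13818 genes that passed the low-count filter, 54 differed between the sorts, or 0.391% (edgeR quasi-likelihood test, adjusted p under 0.05). LAP+/OC2- cells had lower levels of 20 genes (0.145% of those tested) and higher levels of 34 (0.246%). An unadjusted p under 0.05 was reached by 915 genes, and the median log2 difference of all tested genes was 0.0021. In the same fit, LAP+/OC2+ cells had 4417 genes above and 4956 below LAP+ cells, 32% and 35.9% of those tested. The LAP+/OC2+ libraries stood apart in quality: mitochondrial genes took 78.6%, 73.7%, 57.6% and 38.9% of their counts, which left 1917734 to 5045098 nuclear counts, against 14425753 or more in each library of the 2 sorts compared. Every level given below for LAP+/OC2+ cells rests on these libraries, and the part of their quality in it was not tested. The fit of the 8 libraries alone, without LAP+/OC2+ and adult cells, called 12 genes lower and 44 higher. The lower count depended on single libraries: without LAP+ library 2 it was 63, and without LAP+ library 3 it was 34, with 61 higher genes. DESeq2 on the same counts called 103 genes lower and 105 higher, 0.745% and 0.76% of those tested. In bulk RNA, fewer cells of a type and less RNA per cell cannot be told apart.

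**Figure D1:**
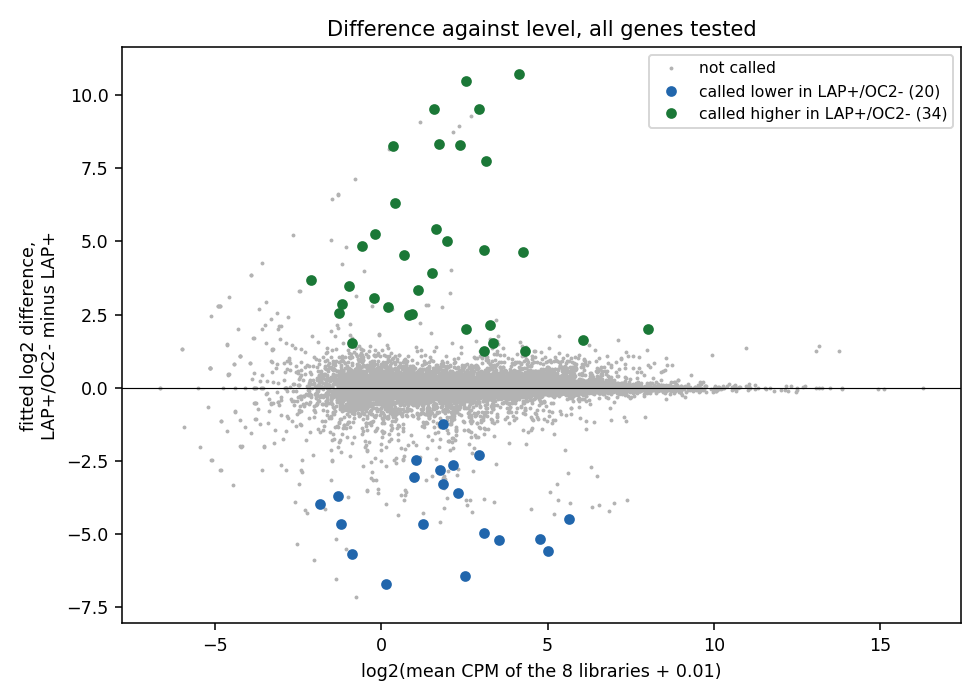
Fitted log2 difference, LAP+/OC2- minus LAP+ (vertical axis), against log2 of the mean CPM of the 8 libraries plus 0.01 (horizontal axis), 1 point per tested gene. The 20 genes called lower lie between -6.72 and -1.25 and the 34 called higher between 1.24 and 10.73. Grey points did not pass the test, and some of them have differences as large as those of called genes.

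Most of the genes that fell were close to absent from LAP+/OC2- cells. The median level in LAP+/OC2- cells was 4.58% of that in LAP+ cells, with a range over the 20 genes from 0.534% to 42.1%. Summed over the 20 genes, LAP+/OC2- libraries 1, 3, 4 and 5 had 15.6, 13.2, 20.3 and 22.4 CPM, LAP+/OC2+ libraries 1 to 4 had 3080, 5639, 2841 and 2057 CPM, and LAP+ libraries 1 to 4 had 491, 148, 324 and 339 CPM. The 3 sorts did not overlap in this sum, with LAP+ cells between the others. In LAP+/OC2+ cells most of the sum came from few genes. These lay at 72385666 and 72395218 on chromosome 3 (means of 2109 and 412 CPM) and at 75160690 on chromosome 10 (437 CPM). The order of the sum did not hold for each gene, since the LAP+ mean was above the LAP+/OC2+ mean in 5 of the 20. Because the contrast chose the 20 genes, the sum is a description. In 19 of the 20 genes no LAP+ library was as low as any LAP+/OC2- library, which held for 183 of all tested genes (1.32%). The exception lay on chromosome 7 (12798868 to 12804283), where LAP+ library 2 had 0.044 CPM and the highest LAP+/OC2- library 0.049 CPM.

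LAP+/OC2+ and adult libraries also entered the fit that chose these genes, through the filter, the scaling and the shared estimate of the spread. The LAP+/OC2+ mean was at least 10 times the adult mean for 19 of the 20, against 10.5% of all tested genes, and the adult mean was under 1 CPM for 18. Their own test against LAP+ cells, which shares the LAP+ libraries, found 13 of the 20 higher and 2 lower in LAP+/OC2+ cells, and did not call 5. Of all tested genes, that test called 32% higher and 35.9% lower. The level in LAP+ cells varied widely as a share of that in LAP+/OC2+ cells, from 2.21% to 217% with a median of 27.7%. Among the LAP+ libraries, library 2 was the lowest for all 20 genes, library 1 the highest for 13 and library 4 the highest for 7. The shares of all tested genes with these orders are not given here. The genes had a median exon length of 1476.5 nt and 6.5 exon blocks, against 2315 nt and 9 blocks over all tested genes.

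**Figure D2:**
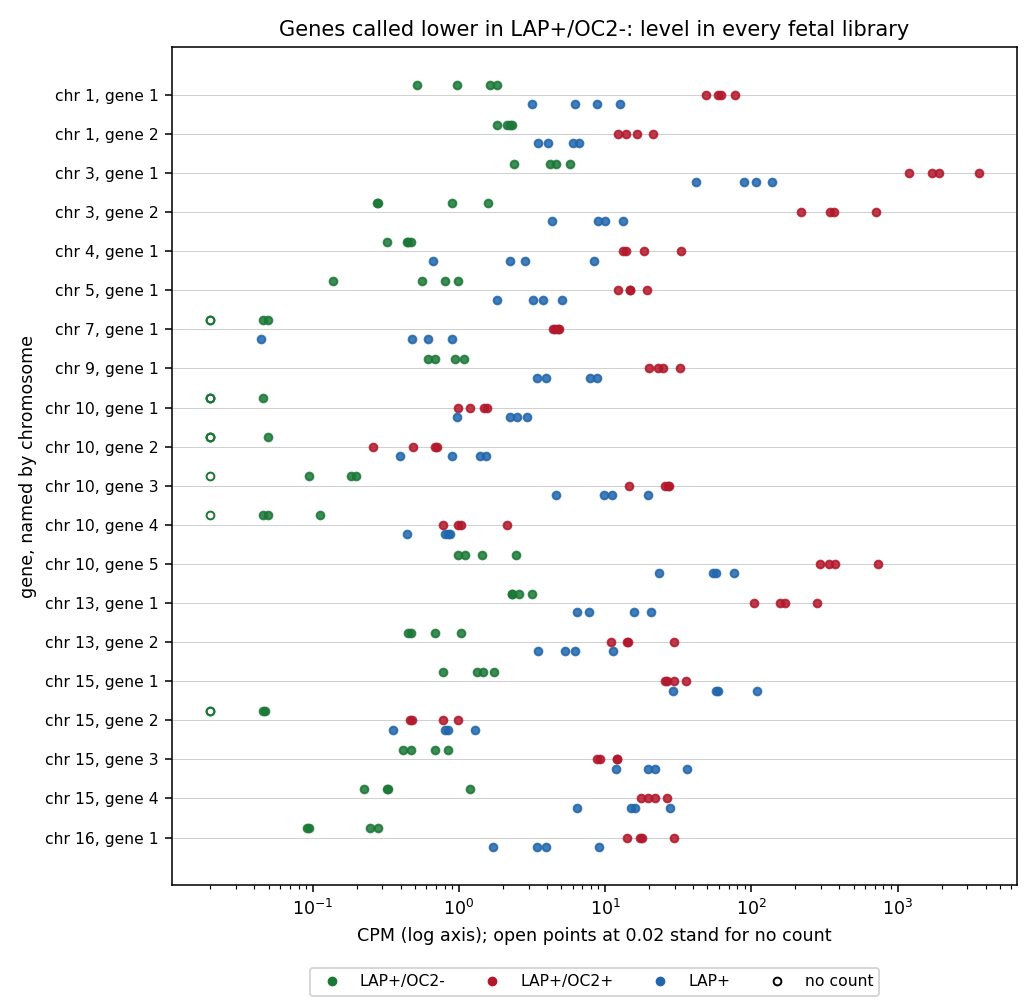
CPM on a log axis for the 20 genes called lower (rows, by chromosome and position) in each LAP+/OC2- (green), LAP+/OC2+ (red) and LAP+ (blue) library; open points stand for no count. LAP+/OC2- points lie at the left in every row, with 1 overlap on chromosome 7, while LAP+ means lie below LAP+/OC2+ means except in the first 2 genes of chromosome 10 and the first 3 of chromosome 15.

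The genes that fell lay in part side by side: 11 of the 20 fell into 4 windows, where a window joins called genes less than 500000 nt apart. The window with the deepest loss was on chromosome 10, from 14656812 to 14690821, with 3 genes and no other tested gene between them. Their summed mean was 0.143 CPM in LAP+/OC2- cells and 25.5 CPM in LAP+/OC2+ cells, against 14.6 CPM in LAP+ cells, and the median fitted log2 difference was -6.44. All 3 were close to absent in LAP+/OC2- cells.

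The first gene of that window by position, ENSRNOG00000018466 (chromosome 10, 14656812 to 14658569, 1204 nt of exon), had the largest fall of those named. Its levels were 0, 0.046, 0 and 0 CPM in LAP+/OC2- libraries and 2.92, 0.97, 2.22 and 2.5 CPM in LAP+ libraries. LAP+/OC2- cells thus gave a single count, in library 3, against 171 counts in LAP+ cells, and every LAP+ library was higher. The fitted log2 difference was -6.72 (SE 0.64, edgeR adjusted p = 5.8e-05). The ratio of LAP+ to LAP+/OC2- levels was 171, with a 95% counting interval from 30.3 to 6796. In LAP+/OC2+ cells it had 1.55, 1.19, 0.98 and 1.5 CPM, in the range of the LAP+ libraries (edgeR adjusted p = 0.14), and the adult libraries had no count.

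ENSRNOG00000028926 (chromosome 10, 14689094 to 14690821, 726 nt of exon), the last gene of the window, was more abundant. It had 0.094, 0.184, 0 and 0.198 CPM in LAP+/OC2- libraries and 19.8, 4.63, 11.2 and 9.82 CPM in LAP+ libraries. The groups stood far apart, with 10 counts in LAP+/OC2- and 898 in LAP+ cells. The fitted log2 difference was -6.44 (SE 0.55, edgeR adjusted p = 3.6e-06). LAP+/OC2+ cells had 25.5, 27.1, 27.6 and 14.6 CPM, above LAP+ cells by a log2 of 1.05 (edgeR adjusted p = 0.017).

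Genes on either side of this window were not called. The next tested gene, from 14701253 to 14703668, had 3.38, 11.1, 14.2 and 10.9 CPM in LAP+/OC2- libraries and 13.5, 3.93, 9.75 and 8.22 CPM in LAP+ libraries, with overlapping groups. Its log2 difference was 0.16 (SE 0.44, edgeR adjusted p = 1). Of 11 genes tested within 100000 nt of the window or inside it, the 8 that were not called had log2 differences between -0.07 and 0.46.

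The window on chromosome 15, from 34622123 to 35020760, held 4 called genes among 5 tested with both ends inside it. Their summed mean was 2.47 CPM in LAP+/OC2- cells and 62.0 CPM in LAP+/OC2+ cells, against 103 CPM in LAP+ cells, and the median log2 difference was -5.09. The most abundant of them, from 34622123 to 34625121 with 888 nt of exon, had 1.45, 0.783, 1.74 and 1.33 CPM in LAP+/OC2- libraries and 109, 28.9, 57.3 and 59.1 CPM in LAP+ libraries. LAP+ levels spread 3.78-fold among themselves, and the lowest lay 16.6 times above the highest LAP+/OC2- library. The log2 difference was -5.58 (SE 0.38, edgeR adjusted p = 3.4e-07). Its LAP+/OC2+ libraries had 29.7, 26.3, 35.9 and 25.7 CPM, below LAP+ cells by a log2 of -1.12 (edgeR adjusted p = 0.0045).

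A neighbour from 34644464 to 34694244 behaved alike, with 0.605 ± 0.199 CPM in LAP+/OC2- cells and 10.5 ± 1.78 CPM in LAP+/OC2+ cells, against 22.5 ± 10.3 CPM in LAP+ cells (SD, n = 4 each). These 2 genes were the only called genes whose level in LAP+ cells was above that of both split sorts by the test (for the second, log2 of -1.08 in LAP+/OC2+ against LAP+ cells, edgeR adjusted p = 0.0078). The LAP+ mean also exceeded the LAP+/OC2+ mean in the gene between them (34634122 to 34636197) and in 2 genes of the chromosome 10 window, without a call. For these 5 genes the LAP+ mean thus did not lie between the means of the 2 sorts that were split by OC2.

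Genes just before those on chromosome 15 did not pass the test. One from 34609776 to 34612432 had 7.27, 20.9, 24.4 and 18.6 CPM in LAP+/OC2- libraries and 27.3, 8.03, 18.8 and 15.6 CPM in LAP+ libraries, so the groups overlapped (log2 0.03, SE 0.61, edgeR adjusted p = 1). One from 34601037 to 34603819 had 2.67, 6.03, 9.50 and 6.97 CPM in LAP+/OC2- libraries, against 20.5, 7.68, 16.5 and 13.8 CPM in LAP+ libraries. That pair of groups overlapped too, and the difference of -1.22 did not pass (SE 0.40, edgeR adjusted p = 0.31).

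**Figure D3:**
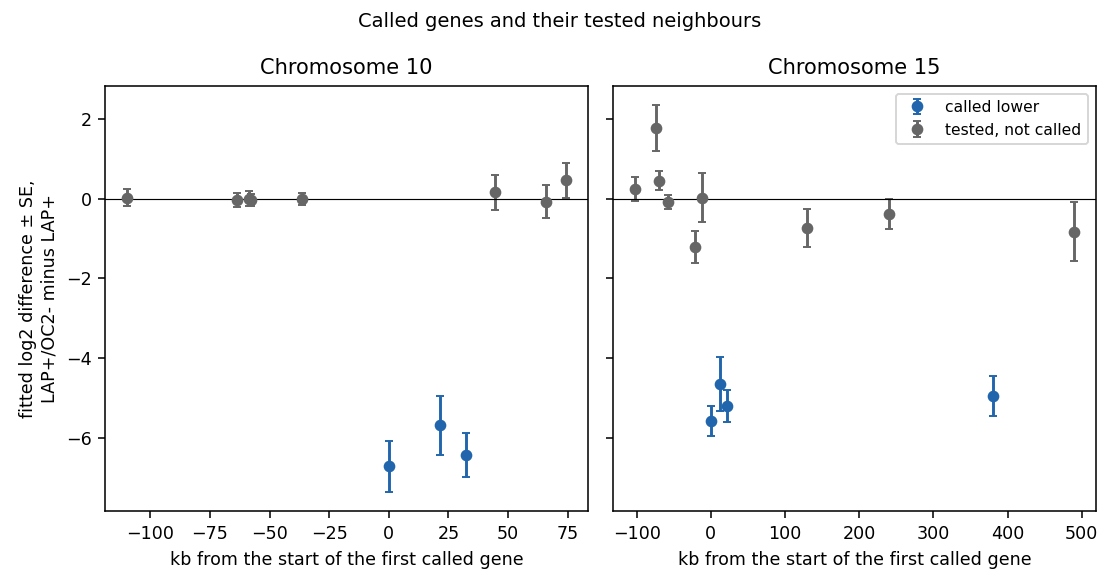
Fitted log2 difference, LAP+/OC2- minus LAP+, with its SE, for the tested genes in and within 100000 nt of the windows on chromosomes 10 (left) and 15 (right), against the distance in kb from the start of the first called gene. Called genes (blue) lie between -4.65 and -6.72; genes not called (grey) lie between -1.22 and 1.76.

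On chromosome 3 a pair of adjacent genes, from 72385666 to 72401318, fell together, and both were very abundant in LAP+/OC2+ cells. Their summed mean was 5.00 CPM in LAP+/OC2- cells and 2521 CPM in LAP+/OC2+ cells, against 104 CPM in LAP+ cells. The first had 4.22, 2.40, 4.61 and 5.73 CPM in LAP+/OC2- libraries and 139, 41.8, 108 and 89.1 CPM in LAP+ libraries. Each LAP+ library was above each LAP+/OC2- library, and the log2 difference was -4.48 (SE 0.45, edgeR adjusted p = 2.2e-05). LAP+ cells held this gene at 4.49% of its level in LAP+/OC2+ cells, and its neighbour at 2.21%.

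The window on chromosome 1, from 227957302 to 228194977, held 2 called genes among 4 tested. The first, from 227957302 to 227965386, had 0.516, 0.967, 1.63 and 1.83 CPM in LAP+/OC2- libraries, 48.8, 77.9, 59.2 and 62.3 CPM in LAP+/OC2+ libraries and 8.77, 3.18, 6.25 and 12.6 CPM in LAP+ libraries. The groups did not overlap, and the log2 difference was -2.64 (SE 0.38, edgeR adjusted p = 0.0013). The next gene, from 227979481 to 227992623, was as abundant in LAP+/OC2+ cells, at 70.1 CPM, but was not called. It had 0.141, 0.461, 0.450 and 1.43 CPM in LAP+/OC2- libraries and 0.615, 0.706, 0.424 and 25.4 CPM in LAP+ libraries. Its mean difference rested on LAP+ library 4, and the other LAP+ libraries lay among those of LAP+/OC2- cells (log2 -3.44, SE 1.16, edgeR adjusted p = 0.35).

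The other 9 genes that fell lay alone on 7 chromosomes. The one with the lowest adjusted p of them, on chromosome 10 from 75160690 to 75171774, had 0.985, 1.11, 2.47 and 1.43 CPM in LAP+/OC2- libraries, 373, 740, 341 and 294 CPM in LAP+/OC2+ libraries and 76.6, 23.3, 57.5 and 54.5 CPM in LAP+ libraries. All 3 sorts stood apart from each other, with a log2 difference between LAP+/OC2- and LAP+ cells of -5.15 (SE 0.41, edgeR adjusted p = 2.1e-06). A gene on chromosome 16, from 19410810 to 19528999, had 0.094, 0.092, 0.281 and 0.247 CPM in LAP+/OC2- libraries and 3.43, 1.72, 3.97 and 9.07 CPM in LAP+ libraries. The log2 difference was -4.64 (SE 0.54, edgeR adjusted p = 1.1e-04). Genes on chromosome 13 at 45314933 and 67351087 had log2 differences of -2.29 and -3.29, and those on chromosomes 9, 5 and 4 had -2.83, -2.47 and -3.04. The smallest levels were those of the genes on chromosome 7 and at 31431809 on chromosome 10, with LAP+ means under 1 CPM.

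Genes higher in LAP+/OC2+ than in adult cells were also listed without use of the levels in the 8 libraries. This LAP+/OC2+ list holds 409 genes with at least 10 CPM in every LAP+/OC2+ library and a LAP+/OC2+ mean at least 20 times the adult mean. The choice set them against adult cells only. Of the list, 376 were higher and 5 lower in LAP+/OC2+ than in LAP+ cells (edgeR), against 32% and 35.9% of all tested genes. In 21 the LAP+/OC2- mean exceeded the LAP+/OC2+ mean. Of the 409, 13 were lower in LAP+/OC2- than in LAP+ cells (3.18%, against 0.145% of all tested genes) and 1 was higher (0.244%, against 0.246%). Every LAP+ library was above every LAP+/OC2- library for 32 of the 409 (7.82%, against 1.32%) and the reverse held for 7 (1.71%, against 2.16%). The list as a whole was centred near 0, with a median log2 difference of -0.0033, beside 0.0021 over all tested genes, and 50.1% of its members were negative. Without LAP+ library 2, 29 members were lower, and without LAP+ library 3, 22, while DESeq2 called 53; the shares of all tested genes were then 0.447%, 0.241% and 0.745%. With a ratio of 50 in place of 20, the list had 223 genes, 13 of them lower, and a median of -0.30.

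Summed over the 409 genes, the level was higher in LAP+/OC2- cells, at 59325, 43328, 71056 and 68984 CPM, than in LAP+ cells, at 14459, 29093, 48664 and 31369 CPM in libraries 1 to 4, with LAP+ library 3 above the lowest LAP+/OC2- library. The sum was carried by a few very abundant genes that did not pass the test. The most abundant, on chromosome 10 from 15602794 to 15603649, had 18311, 13489, 23669 and 22854 CPM in LAP+/OC2- libraries, 16115, 17539, 31636 and 41018 CPM in LAP+/OC2+ libraries and 3068, 7770, 15395 and 6313 CPM in LAP+ libraries. LAP+ library 3 overlapped the LAP+/OC2- range, and the log2 difference of 1.27 was not called (SE 0.40, edgeR adjusted p = 0.30). Another gene of that chromosome, from 15589364, and 2 on chromosome 1, from 168957460 and 168971274, had log2 differences of 1.26, 1.35 and 1.43 (edgeR adjusted p = 0.31, 0.12 and 0.12). The pair on chromosome 1 did not follow the name of the list: that from 168971274 averaged 13274 CPM in LAP+/OC2- cells, with 7351 CPM in LAP+/OC2+ cells, against 4931 CPM in LAP+ cells. The other averaged 2885 CPM in LAP+/OC2- cells, with 1772 CPM in LAP+/OC2+ cells, against 1132 CPM in LAP+ cells.

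Among the 30 most abundant nuclear genes of the list, 1 was lower by the test, that at 72385666 on chromosome 3. In 3 of the 30, the pair on chromosome 1 among them, the LAP+/OC2- mean was above the LAP+/OC2+ mean. Of the same 30, edgeR called 0 higher, with 6 at an unadjusted p under 0.05, while DESeq2 called 2 and limma-voom 3. In 10 of the 30, chosen here after their values were seen, LAP+ library 4 stood more than 3 times above every other LAP+ library. Their summed level was 62.3, 62.3, 114 and 305 CPM in LAP+/OC2- libraries 1, 3, 4 and 5, and 255, 168, 201 and 5767 CPM in LAP+ libraries 1 to 4, beside 24077 CPM in LAP+/OC2+ cells. That LAP+ library 4 was the highest LAP+ library for all 10 follows from the choice. Among LAP+/OC2- libraries, number 5 was the highest for all 10, and the share of all tested genes for which this held is not given here.

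The gene of these with the highest level in LAP+/OC2+ cells lay on chromosome 16 from 75497832 to 75530517. It had 4.60, 4.42, 8.10 and 30.5 CPM in LAP+/OC2- libraries, 5452, 12847, 7513 and 5389 CPM in LAP+/OC2+ libraries and 34.3, 33.9, 23.0 and 788 CPM in LAP+ libraries. LAP+ library 4 was 23.0 times above the next LAP+ library, while LAP+ library 3 lay below the highest LAP+/OC2- library. The log2 difference was -4.20, with an SE of 1.11 (edgeR adjusted p = 0.18). Over the 10 genes the adjusted p ran from 0.102 to 0.414, so edgeR called 0 of them, although all 10 had an unadjusted p under 0.05. DESeq2 called 7 of the 10 lower and limma-voom 0. Of the 83 genes that DESeq2 called lower beyond the 20, LAP+ library 4 was the highest LAP+ library for 70. How often it was the highest over all tested genes is not given here.

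**Figure D4:**
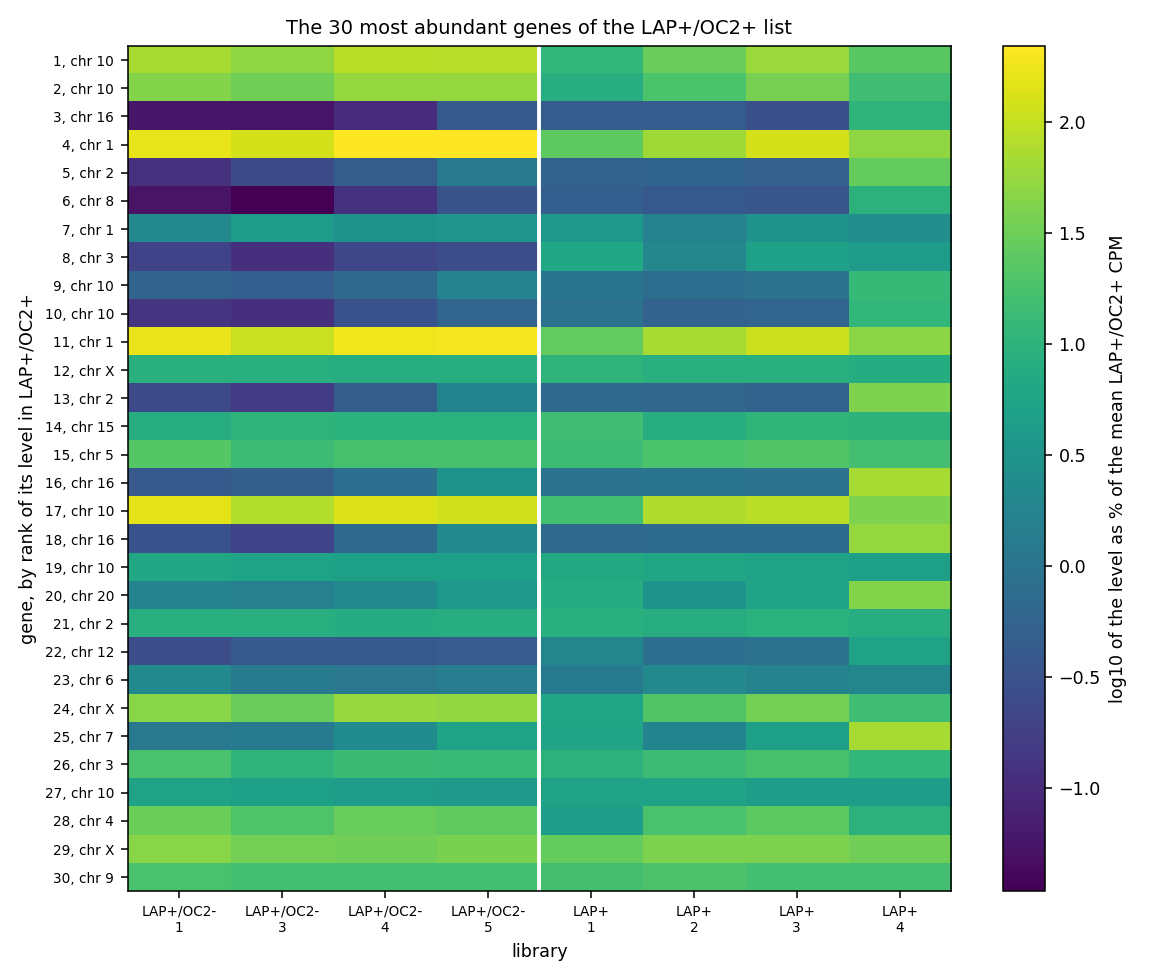
Level of the 30 most abundant genes of the LAP+/OC2+ list in each library, as log10 of the percentage of their mean LAP+/OC2+ CPM (colour), with LAP+/OC2- libraries left and LAP+ libraries right of the white line. In 10 rows the level in LAP+ library 4 is more than 3 times that in every other LAP+ library. In the rows of ranks 1, 2, 4, 11, 17, 24 and 28 every LAP+/OC2- library is above every LAP+ library other than library 3.

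Most of the 34 genes that rose were adult genes: in 30 of them adult hepatocytes had more than 10 times the level of LAP+/OC2- cells, which held for 3.04% of all tested genes. This make-up depended on the tool, since the same measure held for 59 of the 105 genes that DESeq2 called higher and for 31 of the 115 that limma-voom did. Adult libraries also entered the low-count filter, so a gene near absent in both sorts could be tested through its adult level. The fit of the 8 libraries alone, with its own filter, called 25 of the 34 genes. There the measure held for 42 of the 44 genes called higher. In LAP+/OC2- cells the 30 were present at trace levels relative to adult cells, and most were near absent in LAP+ cells. The LAP+/OC2- mean was 0.634% to 1.26% of the adult mean, with a median of 0.773%, and the LAP+ median was 0.0288%. By library, the median share was 0.924%, 0.926%, 0.611% and 0.583% of the adult level in LAP+/OC2- libraries 1, 3, 4 and 5, and 0.743%, 0.745%, 0.542% and 0.402% in LAP+/OC2+ libraries 1 to 4, against 0.0306%, 0.0332%, 0.0242% and 0.0319% in LAP+ libraries 1 to 4. Every library of both split sorts thus lay above every LAP+ library in this share, which describes genes chosen by the contrast. The sources used here give neither the sequencing lanes nor the index layout, and whether these counts belong to the sorted cells was not tested.

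The gene with the largest rise was ENSRNOG00000045799 (chromosome 8, 41657566 to 41661238, 629 nt of exon). It had 44.3, 40.5, 26.6 and 28.8 CPM in LAP+/OC2- libraries and 0.051, 0, 0 and 0 CPM in LAP+ libraries. LAP+ cells gave 1 count against 2879 in LAP+/OC2- cells, a ratio of 2878 with a 95% counting interval from 516 to 113702 (log2 10.73, SE 0.69, edgeR adjusted p = 3.0e-07). LAP+/OC2+ libraries had 36.1, 13.8, 29.4 and 19.9 CPM, and adult libraries 5951, 1814, 6475 and 5453 CPM. The library numbered 2 was the lowest both of LAP+/OC2+ and of adult cells.

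ENSRNOG00000050232 (chromosome 8, 37702231 to 37705044, 1054 nt of exon) had 14.3, 14.5, 9.05 and 8.75 CPM in LAP+/OC2- libraries and no count in any LAP+ library. Against the limit of 3 counts per LAP+ library, it was at least 76.8-fold higher in LAP+/OC2- cells (edgeR adjusted p = 1.9e-05). Adult cells had 1612 ± 721 CPM (SD, n = 4). In LAP+/OC2- cells, libraries 1 and 3 were again above libraries 4 and 5, and this was the order of the median share over the 30 genes.

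In 4 of the 30 genes the highest adult library had more than 5 times the level of the lowest, and in 3 of these the same held among LAP+/OC2+ libraries. Such a spread among LAP+/OC2+ libraries was found in 7 of the 30 genes, so it also occurred without one among adult libraries. No gene of the 30 spread more than 2.74-fold among LAP+/OC2- libraries. The limit of 5, and the pair of genes given as examples, were chosen after the values were seen. A gene on chromosome 5, from 77405142 to 77903113, had 19.0, 18.3, 13.3 and 10.5 CPM in LAP+/OC2- libraries 1, 3, 4 and 5. Its LAP+/OC2+ libraries 1 to 4 had 18.6, 0.237, 14.5 and 7.48 CPM, its adult libraries 2467, 12.2, 2981 and 2231 CPM, and its LAP+ libraries 0, 0, 0 and 0.050 CPM. Library 2 was low in LAP+/OC2+ and adult cells alike. A gene on chromosome 1, from 147422779 to 147435897, had 13.5, 12.1, 8.43 and 6.92 CPM in LAP+/OC2- libraries and at most 0.051 CPM in LAP+ libraries. Here library 2 was the high one, at 28.7 CPM of LAP+/OC2+ and 3203 CPM of adult cells, where the other libraries had 2.19 to 4.39 CPM in LAP+/OC2+ and 551 to 754 CPM in adult cells.

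Of the genes that rose, 11 lay in 4 windows. The window on chromosome 1, from 147422779 to 148287217, held 4 genes, all called, with a summed mean of 34.9 CPM in LAP+/OC2-, 30.6 CPM in LAP+/OC2+, 0.136 CPM in LAP+ and 4779 CPM in adult cells. On chromosome 17, from 69388335 to 69711689, 3 of 6 tested genes were called. One between them, from 69634890 to 69647765, was not called, with a mean of 40.5 CPM in LAP+/OC2- libraries, against 40.4 CPM in LAP+ libraries (log2 0.0038, SE 0.25). Pairs lay on chromosome 19, from 15033108 to 15335002, and on chromosome 8, from 41657566 to 41702599.

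A list of adult genes chosen without the 8 libraries, with at least 100 CPM in every adult library and an adult mean at least 20 times the LAP+/OC2+ mean, held 276 genes. Of these, 24 were higher in LAP+/OC2- than in LAP+ cells (8.70%, against 0.246% of all tested genes, edgeR). The count of lower genes was 0, against 0.145% of all tested genes (edgeR, with 0 also at an unadjusted p under 0.05, and 0 by DESeq2 and limma-voom). Every LAP+/OC2- library was above every LAP+ library for 39 of the 276 (14.1%), against 298 of all tested genes (2.16%), and the reverse held for none. The list's median log2 difference was 0.0507, and 65.9% of its members were positive. Its median level was 8.32%, 13.7%, 13.8% and 12.4% of the adult level in LAP+/OC2- libraries 1, 3, 4 and 5, and 14.7%, 8.71%, 13.3% and 11.7% in LAP+ libraries 1 to 4. Those ranges overlapped, so the bulk of this list did not part the sorts as the 30 did. With a ratio of 50 in place of 20, the list had 120 genes, 24 of them higher (20%). Its median log2 difference was then 0.245, with 84.2% of members positive. Every LAP+/OC2- library was above every LAP+ library for 38 of the 120 (31.7%).

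**Figure D5:**
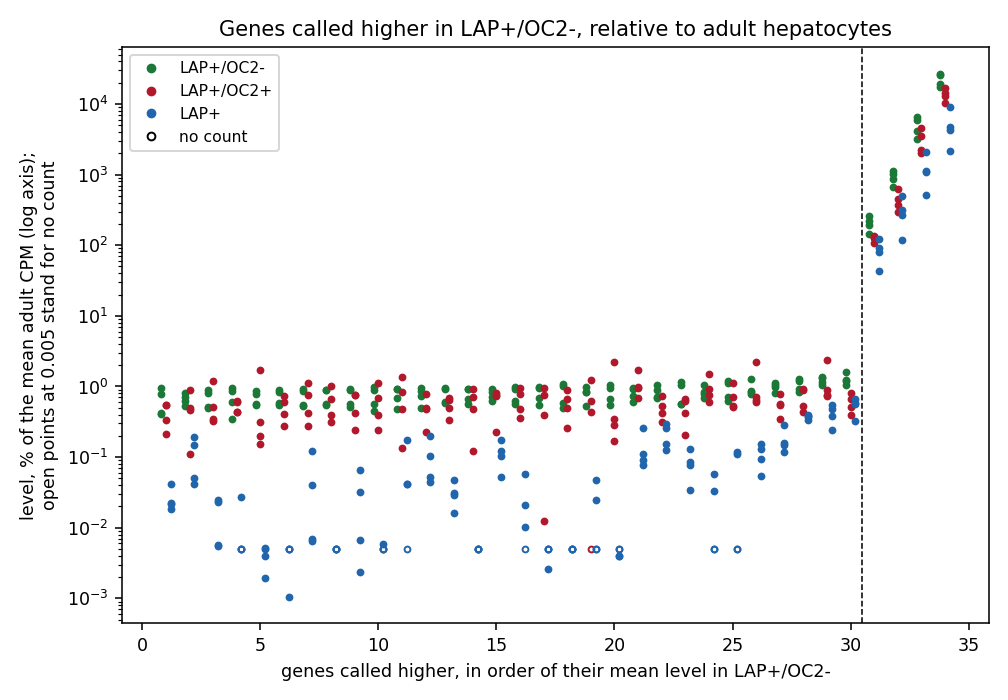
Level of the 34 genes called higher, as a percentage of their mean adult CPM (log axis), in LAP+/OC2- (green), LAP+/OC2+ (red) and LAP+ (blue) libraries; open points stand for no count. Left of the dashed line, 30 genes have LAP+/OC2- means between 0.634% and 1.26% of adult; the 4 to its right have LAP+/OC2- means above the adult mean.

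In the other 4 genes that rose, the LAP+/OC2- mean was above the adult mean. They were not all absent from adult cells, since the one on chromosome 5 had a higher mean in adult than in LAP+ cells. The most abundant, on chromosome 13 from 49132667 to 49169918, had 348, 274, 547 and 508 CPM in LAP+/OC2- libraries, 175, 190, 302 and 394 CPM in LAP+/OC2+ libraries and 43.8, 96.4, 179 and 93.4 CPM in LAP+ libraries. The groups of the comparison did not overlap, with a log2 difference of 2.02 (SE 0.35, edgeR adjusted p = 0.0095). On chromosome 10, a gene from 66225995 to 66229311 had 12.4, 13.5, 18.2 and 19.2 CPM in LAP+/OC2- libraries and 1.54, 3.40, 6.46 and 3.01 CPM in LAP+ libraries (log2 2.13, SE 0.35, edgeR adjusted p = 0.0046). Those groups stood apart as well. A further gene of chromosome 10, from 105506955, and one of chromosome 5, from 58477894, had log2 differences of 1.63 and 1.26 (edgeR adjusted p = 0.024 and 0.033).

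In all 4, LAP+ library 1 was the lowest and LAP+ library 3 the highest LAP+ library, the same order of extremes as in the most abundant gene of chromosome 10. Their calls depended on the libraries in the fit. With the 8 libraries alone, the gene of chromosome 13 had an adjusted p of 0.11, the further gene of chromosome 10 one of 0.21 and that of chromosome 5 one of 0.24 (edgeR). With the 12 fetal libraries, the genes at 105506955 and 58477894 had adjusted p-values of 0.10 and 0.088, and without a low-count filter the first had 0.092. In the 6 libraries of the shared numbers none of the 4 was called, with adjusted p-values from 0.36 at 66225995 to 0.57 at 58477894. DESeq2 and limma-voom called all 4. The call at 105506955 was lost without LAP+ library 4 (adjusted p = 0.11) or without LAP+/OC2- library 1, 4 or 5 (0.062, 0.099 and 0.084). That at 58477894 was lost without LAP+ library 1, 2 or 4 (0.056, 0.069 and 0.093) or LAP+/OC2- library 1, 4 or 5 (0.082, 0.15 and 0.11). Without LAP+ library 3, the count of higher genes whose adult mean was not more than 10 times the LAP+/OC2- mean was 32 in place of 4.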

How the data were processed

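Counts per feature were deposited by the authors for each library, per the file headers, with exon coordinates and lengths. Per the submitters' processing notes the tools included STAR 2.5.2b, Trimmomatic 0.36, bcl2fastq 2.17 and, from Subread 1.5.2, featureCounts. The sources used here give no genome build, annotation release or strand setting. Counts of near-identical, overlapping or antisense genes may therefore mix.

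Groups came from the sample titles. All 16 libraries before transplantation were fitted together in edgeR 4.0.16 (R 4.3.3; filterByExpr, TMM, robust quasi-likelihood test), with Benjamini-Hochberg adjustment over all genes tested and an adjusted p of 0.05. The group was the only term. CPM uses TMM-scaled totals, and bounds use unscaled totals. The test was also run on counts simulated from the fitted levels and dispersions, without shifts of single libraries. The outcome of that run is not given here, and no result rests on it. Single library values were tested by exact permutation in scipy 1.17.1. Alternatives used DESeq2 1.42.0, limma 3.58.1 (voom with quality weights), other scalings, filters and libraries.

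The members and lists were chosen with earlier results of these data known. Genes to name were the largest differences among called genes with at least 1 CPM in the higher sort, 15 per direction, of which 2 per direction are printed by identifier because no identifier has a symbol. Other genes given by position were chosen after their values were seen. Marker lists could not be applied, and the 10 libraries after transplantation were not used here.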

Additional observations from a re-analysis of the deposited data

Results flagged for a closer look

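In 11 of 124 groups of 4 libraries looked at, 1 library stood far from the other 3 relative to the range of the group, where chance alone would mark about 1 in 20. In 6 of these the value was 1 or 2 counts against none in the others. These were the LAP+/OC2- libraries for 2 lower genes of chromosome 10 (0.046 CPM in library 3 for the gene at 14656812, and 0.049 CPM in library 5 for that at 14678278), and the LAP+ libraries for 4 higher genes. Those 4 had 0.051 CPM in library 1 (chromosome 8, 41657566), 0.050 CPM in library 4 (chromosome 5, 77405142), 0.053 CPM in library 3 (chromosome 1, 147713892) and 0.103 CPM in library 1 (chromosome 7, 3383879).

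The other 5 were above that level. LAP+/OC2- library 5 had 1.19 CPM of the lower gene at 35001838 on chromosome 15, against 0.225 to 0.328 CPM in the other LAP+/OC2- libraries. LAP+ library 2 had 0.441 CPM of the lower gene at 31431809 on chromosome 10, against 0.802 to 0.872 CPM in the other LAP+ libraries. LAP+/OC2- library 3 had 0.322 CPM of the lower gene on chromosome 4, against 0.445 to 0.469 CPM. LAP+ library 4 had 0.200 CPM of a higher gene on chromosome 6 (127808785), against 0.088 to 0.106 CPM. LAP+/OC2- library 3 had 2.03 CPM of a higher gene on chromosome 6 (136682126), against 1.27 to 1.38 CPM.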

How the results depend on the processing

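The main counts were 54 genes called, 20 lower and 34 higher. RLE size factors, nuclear features alone, other low-count filters and the 12 fetal libraries kept each of them within 1.5 times. DESeq2 gave 208 (103 lower, 105 higher) and limma-voom 171 (56 lower, 115 higher), with all 20 lower genes among the calls of both. The 8 libraries alone gave 12 lower genes. With a replicate block, the 8 libraries and the 6 with shared numbers both gave 17 (7 lower, 10 higher), with 6 lower members of the LAP+/OC2+ list and 6 higher members of the adult list. The 6 without the block, a fit chosen after seeing the data, gave 14 lower and 34 higher genes. Same-numbered LAP+/OC2- and LAP+ libraries deviated from their sorts with correlations of -0.40, -0.30 and 0.04. The labels do not say whether equal numbers mark a shared preparation, and the replicate block was set by these numbers. Each LAP+/OC2- library correlated best with a different LAP+ library of another number (1 with 2 at 0.64, 3 with 1 at 0.55, 4 with 3 at 0.39, 5 with 4 at 0.36), a hint from the data that no fit here used. Leaving out 1 library gave 44 to 98 calls, 16 to 63 lower and 27 to 61 higher. The LAP+/OC2+ list then had 11 to 29 lower members (53 by DESeq2) and a median log2 from -0.14 to 0.06, and its median was -0.30 at a ratio of 50. Library differences ran from -0.43 to 0.36 percentage points (mitochondrial share) and from -127 to 80.3 genes at equal depth. Of 152 alternative values for the 8 genes followed singly, 120 kept their direction and call, 32 kept the direction alone, and none reversed. The causes were not tested. Depth limits genes near 0.178 CPM, where counts of 0 and 1 decide fitted sizes.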
